A study of Mus musculus with 19 samples.

Results

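The genes described here build the machinery that holds sister chromatids together, condenses chromosomes and attaches them to the spindle in mitosis. They were taken from a list of 38 symbols of kinetochore, centromere, cohesin and condensin genes, to which every symbol starting with Cenp was added. Of the listed genes 36 had a row in the authors' deposited table of expression ratios, Hjurp and Bub3 had none, and Cenpw was added by its name, which gave 37 of the 1609 genes of the table. They are called the segregation genes below. No expression value entered the choice by the rule, although earlier results of these data were known when it was made.

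The centromere is the chromosomal region marked by nucleosomes that carry the histone H3 variant CENP-A. On it sits an inner layer of proteins, the constitutive centromere-associated network, and on that an outer layer, the kinetochore proper, whose Ndc80 complex grips the microtubules. Cohesin rings hold the sister chromatids together until separase cuts them, and condensins compact the chromosomes. Many of these genes are transcribed late in the cell cycle and are low in cells that do not divide.

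The study sorted cells of mouse skin squamous cell carcinoma, a cancer of keratinocytes, from tumours of strain C57BL/6 grown as allografts after intradermal injection of 10000 cells. The sort used CD71, the transferrin receptor, which is high on dividing cells, and retention of H2BGFP, a fluorescent histone that is diluted as cells divide. Quiescent cells were CD71lo H2BGFPhi, proliferative cells were CD71hi H2BGFPlo and double negative cells were CD71lo H2BGFPlo. Neither the promoter that drives H2BGFP nor the origin of the injected cells is named in the sources used here. RNA came from 100000 sorted cells per library, 1 library for each of 3 populations from either of 2 tumours (SCC1 and SCC2). Of the 19 samples of the series, 10 were ATAC-seq libraries, which map open chromatin in 50000 cells each and included a Tgfbr2 knockout tumour, SCC3. A Smad2/3 ChIP-seq library of SCC1 and input libraries of SCC1 and SCC2 came from 12000000 cells treated in culture with 5 ng/mL TGFβ1 for 1 h at 50 uM calcium.

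The authors' deposited table gives ratios between populations within a tumour, without levels, errors or q-values, so the depth behind each value is unknown. By its title it lists genes found differentially expressed, by a rule that the sources used here do not give, so every count and every share of the table below is taken among genes already selected for a difference. No gene was tested: over 2 tumours an exact two-sided sign-flip permutation test cannot go below p = 0.5. The ratios are read here as log2 ratios, as the authors' tool Cuffdiff writes them, since the header does not name the base. A gene is counted as lower or higher when both tumours gave its ratio the same sign. With 1 library per population and tumour, a lower ratio from fewer cells that express a gene and from less RNA per cell cannot be told apart. The 3 comparisons share their libraries: for all 37 segregation genes the quiescent against proliferative ratio equalled the sum of the other two within 0.1, so no comparison stands apart from the others.

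All 37 segregation genes were lower in quiescent than in proliferative cells of both tumours, where 52.3% of the genes in the table were. With a log2 ratio of -1 or below required in both tumours, 35 of the 37 were lower, against 23.3% of the table. Spc24 and Ska1 missed that mark in SCC2 only. The median log2 ratio of the segregation genes per the authors' deposited table was -3.61 in SCC1, which is 8.20% of the proliferative level, and -1.62 in SCC2, which is 32.6%. Over all genes of the authors' deposited table the medians came to -0.61 in SCC1, -0.49 in SCC2. The segregation genes spanned -8.14 to -1.06 in SCC1 and -3.43 to -0.73 in SCC2 per the authors' deposited table.

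Double negative cells likewise had less of all 37 genes than proliferative cells did in either tumour, each by a log2 ratio of 1 or more, where 50.9% of the table's genes were lower and 25.2% lower by that size. Here the tumours gave like values. From the authors' deposited table, the median was -2.97 for SCC1 and -2.88 for SCC2, which are 12.8% and 13.6% of the proliferative level, with ranges of -4.67 to -1.18 and -3.83 to -1.20. Markers of other cells stood on the other side of 0 in this comparison: per the authors' deposited table the fibroblast medians were 2.73 and 1.47 (10 genes, ranges 0.78 to 4.39 and -0.73 to 2.65), the immune medians 1.16 and 0.95 (7 genes, 0.50 to 2.004 and -0.07 to 1.95) and the endothelial medians 5.09 and 3.08 (2 genes, 3.34 to 6.84 and 1.63 to 4.53). Their part in the segregation gene ratios was not tested.

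**Figure D1:**
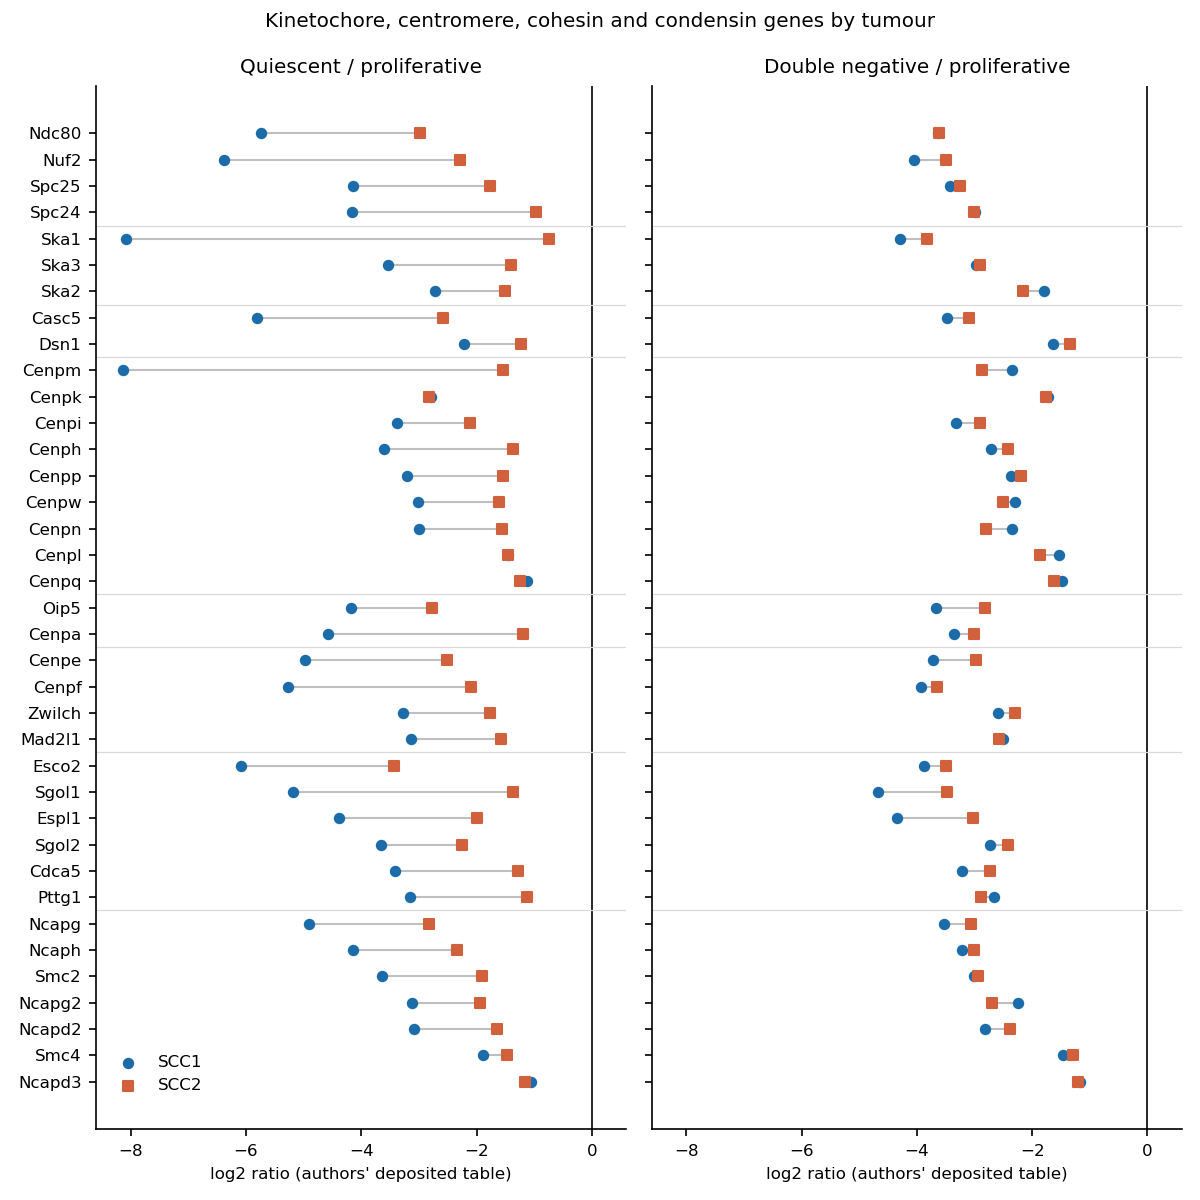
Log2 ratios of the 37 segregation genes from the authors' deposited table, 1 point per gene and tumour (circles SCC1, squares SCC2), with the genes grouped by role from the Ndc80 complex to the condensins. In the quiescent against proliferative panel the SCC1 points reach -8.14 while no SCC2 point lies below -3.43, and in the double negative against proliferative panel the points of both tumours lie close together.

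The Ndc80 complex is the microtubule-binding rod of the kinetochore, made of Ndc80, Nuf2, Spc24 and Spc25. Ndc80 itself had quiescent against proliferative log2 ratios of -5.74 in SCC1 and -2.98 in SCC2 per the authors' deposited table, or 1.87% and 12.7% of the proliferative level. Its partner Nuf2 stood at -6.38 and -2.29 per the authors' deposited table, or 1.20% and 20.5%. For Spc25, which with Spc24 anchors the rod to the inner kinetochore, the authors' deposited table gave -4.14 and -1.77. Each of the 4 subunits was thus lower in SCC1 by a larger ratio than in SCC2. Spc24 came to -4.16 and -0.97 per the authors' deposited table, 50.9% of the proliferative level in SCC2. Against proliferative cells, the double negative cells gave all 4 subunits a ratio between -4.04 and -2.99 per the authors' deposited table, in either tumour.

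The Ska complex helps the kinetochore to stay on the ends of shortening microtubules. Ska1, its microtubule-binding subunit, differed most between the tumours of all segregation genes, at -8.08 in SCC1 and -0.73 in SCC2 for quiescent against proliferative cells per the authors' deposited table. These are 0.37% and 60.1% of the proliferative level. The double negative against proliferative ratios of Ska1 were -4.30 and -3.83 per the authors' deposited table, a smaller difference between the tumours. Ska3 had -3.54 and -1.41 and Ska2 had -2.73 and -1.50 per the authors' deposited table.

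The Knl1 and Mis12 complexes link the inner and outer layers. Casc5, the gene of the Knl1 scaffold that recruits checkpoint kinases, stood at -5.81 in SCC1 and -2.57 in SCC2 for quiescent against proliferative cells per the authors' deposited table. Dsn1, a Mis12 complex subunit, stood nearer to 0 at -2.21 and -1.24 per the authors' deposited table.

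The constitutive centromere-associated network had 9 members, Cenph, Cenpi, Cenpk, Cenpl, Cenpm, Cenpn, Cenpp, Cenpq and Cenpw, and the median nearest to 0 in SCC1 among the role groups. From the authors' deposited table, the median was -3.02 for SCC1 and -1.54 for SCC2. Cenpm had the lowest quiescent against proliferative ratio of all segregation genes in SCC1, -8.14, against -1.54 in SCC2 per the authors' deposited table. Its double negative ratios, -2.35 and -2.88 per the authors' deposited table, lay within the range of the other genes of this network. Cenpk, at -2.79 and -2.83 per the authors' deposited table, was among the 4 genes whose SCC2 ratio was not above that of SCC1. Cenpi had -3.38 and -2.12 per the authors' deposited table. The remaining genes of that kind were Cenpl, Cenpq and Ncapd3, with differences between the tumours of at most 0.12 in size. Cenpq, at -1.13 and -1.25 per the authors' deposited table, kept 45.7% and 42.0% of the proliferative level, and Cenpl had -1.45 and -1.46.

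CENP-A, encoded by Cenpa, is deposited after mitosis, and Oip5 (Mis18 beta) helps to prime the centromere for it. For Oip5 the authors' deposited table gave quiescent against proliferative ratios of -4.18 in SCC1 and -2.77 in SCC2. For Cenpa it was -4.57 and -1.20 per the authors' deposited table. In SCC2 the Cenpa ratio is 43.6% of the proliferative level, against 4.21% in SCC1.

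The outer corona forms on kinetochores that are not yet attached and carries the checkpoint that delays anaphase. The kinesin gene Cenpe stood at -4.98 and -2.52 and Cenpf, the gene of a large corona protein that builds up late in the cell cycle, at -5.26 and -2.09 per the authors' deposited table. Zwilch, a subunit of the complex that brings dynein to the kinetochore, had -3.28 and -1.76, and the checkpoint effector Mad2l1 -3.13 and -1.58 per the authors' deposited table.

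The cohesin group here holds regulators of the ring, not the ring itself. Esco2, the acetyltransferase that locks cohesin in S phase, had the lowest quiescent against proliferative ratio in SCC2, -3.43, and -6.09 in SCC1 per the authors' deposited table. These are 9.29% and 1.47% of the proliferative level. Shugoshin 1, Sgol1, which protects centromeric cohesin, stood at -5.19 and -1.37 per the authors' deposited table. Separase, Espl1, which cuts cohesin at anaphase, stood at -4.38 and -2.00 per the authors' deposited table. The other three were Sgol2, Cdca5 (sororin, which stabilises cohesin) and Pttg1 (securin, the inhibitor of separase), between -3.66 and -3.15 in SCC1 and between -2.25 and -1.13 in SCC2 per the authors' deposited table. Sgol1 and Espl1 were the only segregation genes whose double negative ratio differed by more than 1 between the tumours.

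Condensin I and condensin II share the subunits Smc2 and Smc4. The condensin I subunit Ncapg had quiescent against proliferative ratios of -4.90 and -2.83, and Ncaph had -4.14 and -2.34, per the authors' deposited table. The shared Smc2 stood at -3.63 and -1.91 per the authors' deposited table, while its partner Smc4 stood at -1.89 and -1.47. Ncapd2 (condensin I) and Ncapg2 (condensin II) had -3.09 and -1.64, and -3.12 and -1.93, per the authors' deposited table. The condensin II subunit Ncapd3 was nearest to 0 of all segregation genes in SCC1, at -1.06, and -1.16 in SCC2 per the authors' deposited table. Within the condensins the range thus ran from 3.34% of the proliferative level for Ncapg to 48.1% for Ncapd3 in SCC1.

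**Figure D2:**
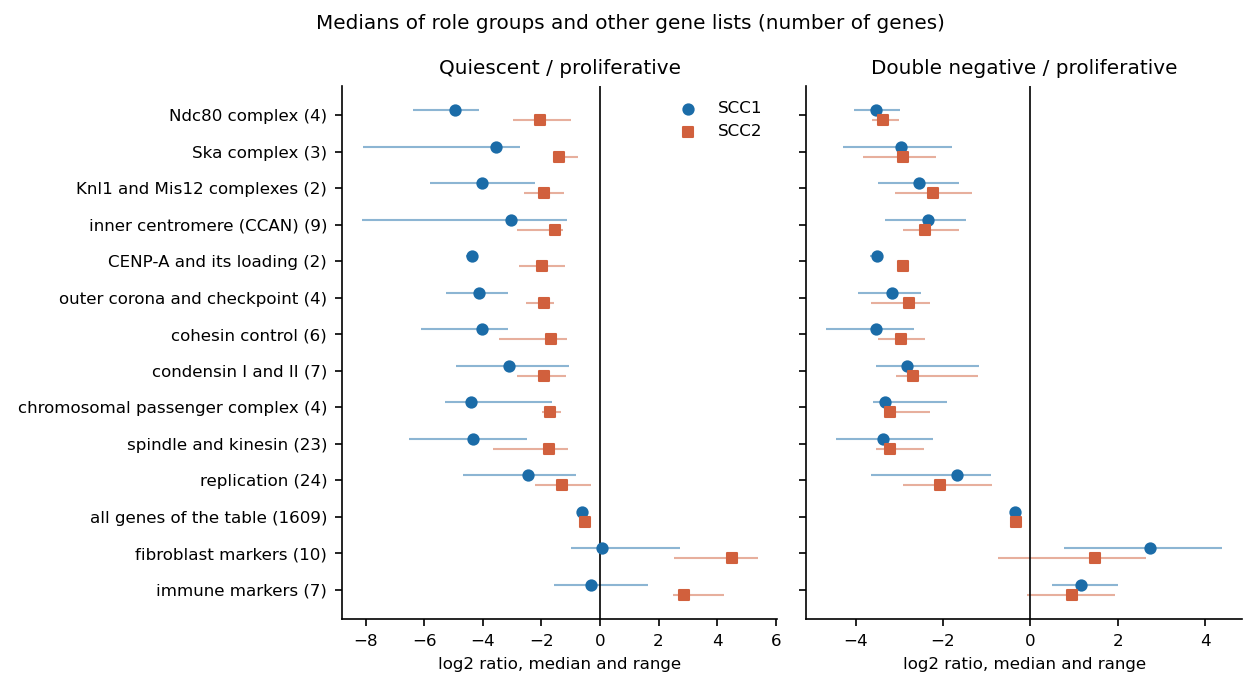
Median (point) and range (line) of log2 ratios from the authors' deposited table for the role groups and for other gene lists, circles SCC1 and squares SCC2, with the number of genes in brackets and no range drawn for all genes of the table. Medians of the 8 role groups lie between -4.95 and -3.02 in SCC1 and between -2.03 and -1.41 in SCC2 for quiescent against proliferative cells, and fibroblast markers stand at 4.51 in SCC2 but 0.07 in SCC1. The group labelled inner centromere (CCAN) is the constitutive centromere-associated network.

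The tumours differed in the quiescent against proliferative ratio of the segregation genes far more than in the double negative one. The SCC2 ratio was above the SCC1 ratio in 33 of 37 genes, by a median of 1.80 on the log2 scale, with differences from -0.12 to 7.35. It differed by more than 1 in 31 genes. Of the table's 1609 genes the SCC2 ratio was above the SCC1 ratio in 995, and 638 differed by more than 1. The median difference over the table was 0.28. Among 23 spindle and kinesin genes these values were 23, 21 and 2.53, and among 24 replication genes 23, 13 and 1.01. The double negative against proliferative ratio differed by more than 1 in 2 segregation genes, against 314 of the table's genes. Its median difference was 0.21, against -0.04 over the table. Across the 37 genes, which are not independent replicates, the ratios of both tumours had a Pearson r of 0.29 and a Spearman rho of 0.37 for quiescent cells, and 0.90 by either measure for double negative cells. Over all genes of the table Pearson r was 0.64 and 0.72, and Spearman rho 0.71 and 0.86. Pearson r was -0.15 and 0.77 for the spindle and kinesin genes, and 0.77 and 0.82 for the replication genes. Whether the tumours differ was not tested, since there is 1 library per population and tumour.

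Quiescent against double negative cells, both CD71lo, therefore gave opposite signs. In SCC1 34 of the 37 segregation genes were lower in quiescent cells, where 70.9% of the table's genes were, and the median was -0.77 per the authors' deposited table. In SCC2 35 were higher, where 57.1% of the table's genes were, and the median was 0.75 per the authors' deposited table. All genes of the authors' deposited table had medians of the same signs, -0.23 and 0.13. The 2 genes lower in both tumours were Cenpk and Smc4, where 30.0% of the table's genes were. The 3 genes higher in both were Cenpl, Cenpq and Ncapd3, against 16.3% of the table. Lower in SCC1 and higher in SCC2 were 32 genes, where 40.8% of the table's genes were. Cenpk stood at -1.11 and -1.07 and Smc4 at -0.47 and -0.19 per the authors' deposited table. Cenpq had 0.31 and 0.35, Cenpl 0.04 and 0.38, and Ncapd3 0.08 and 0.02 per the authors' deposited table. Cenpm had the widest gap between the tumours, at -5.83 and 1.30 per the authors' deposited table, and Ska1 followed at -3.83 and 3.07.

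**Figure D3:**
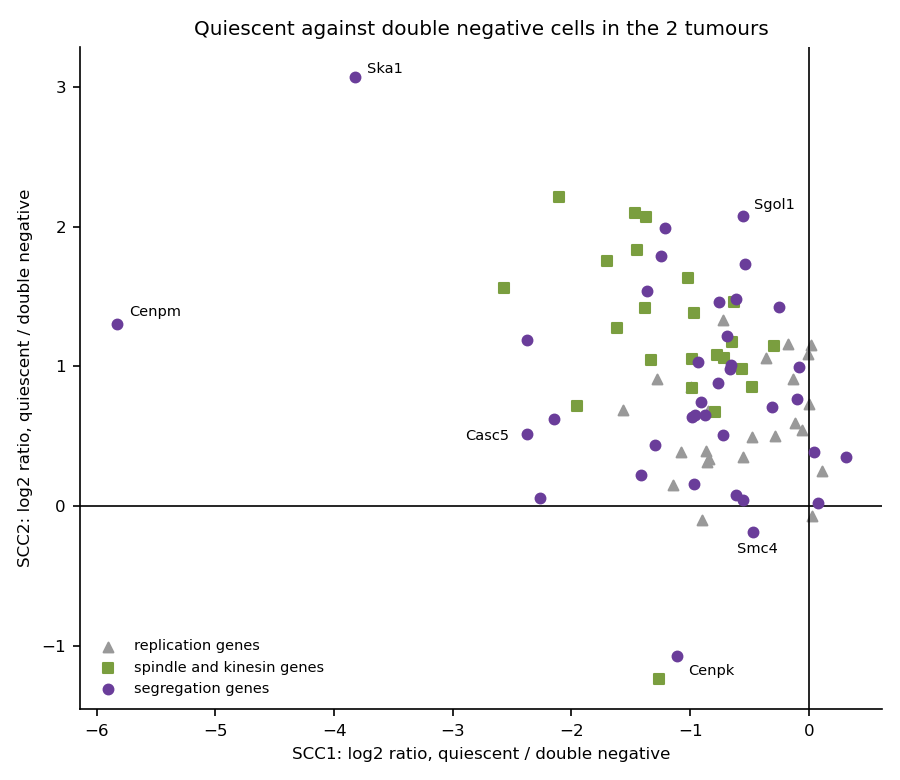
Log2 ratio of quiescent against double negative cells in SCC1 (x axis) and SCC2 (y axis) from the authors' deposited table, 1 point per gene. Only the segregation genes, the spindle and kinesin genes and the replication genes are drawn, and the other genes of the table are not. The segregation genes sit mostly in the upper left, lower in SCC1 and higher in SCC2, as 32 of 37 do.

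Values of the sort, of dividing cells and of other cell types are given here for the same comparisons. Mki67, a marker of dividing cells, had quiescent against proliferative ratios of -5.90 in SCC1 and -2.28 in SCC2, and double negative ratios of -4.40 and -3.15, per the authors' deposited table. Tfrc, which encodes CD71, had -1.72 and -1.55 for quiescent and -1.63 and -2.02 for double negative cells per the authors' deposited table. Of 14 fibroblast markers 10 had a row, with quiescent against proliferative medians of 0.07 in SCC1 (range -0.997 to 2.75) and 4.51 in SCC2 (2.54 to 5.38) per the authors' deposited table. Of 13 immune markers 7 had a row, with medians of -0.30 (-1.57 to 1.65) and 2.87 (2.49 to 4.24) per the authors' deposited table. Of 7 endothelial markers 2 had a row, with medians of -0.72 (-0.83 to -0.61) and 1.82 (0.88 to 2.75) per the authors' deposited table. Against double negative cells the fibroblast medians were -2.72 in SCC1 and 3.14 in SCC2 per the authors' deposited table, the same signs as those of the segregation genes. The immune medians were -1.44 and 2.29, and the endothelial medians, -5.85 and -1.30, were negative in both tumours per the authors' deposited table. The part of these cells was not tested here either. Of 15 keratinocyte markers 4 had a row (Krt6b, Krt13, Krtdap and Epcam). Their quiescent against proliferative medians were -2.49 in SCC1 (-3.71 to -1.31) and -0.13 in SCC2 (-0.79 to 3.22) per the authors' deposited table. All 4 were lower in SCC1, while 2 were lower and 2 higher in SCC2. Krt5 and Krt14 had no row, so the table gives no level by which the keratinocyte identity of a library could be checked.

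Of 35 other listed genes of the same complexes 18 had a row, and all 18 were lower in quiescent and in double negative cells of both tumours. Their quiescent against proliferative medians were -2.95 in SCC1 and -1.44 in SCC2 per the authors' deposited table, and 13 were lower by a log2 ratio of 1 or more in both tumours. The 4 genes of the chromosomal passenger complex, which corrects faulty attachments, had medians of -4.39 and -1.70 per the authors' deposited table, with its kinase Aurkb at -5.28 and -1.88. The checkpoint kinase Bub1 stood at -5.45 and -1.77 per the authors' deposited table. Smc3 and Rad21, subunits of the cohesin ring itself, were nearer to 0, at -0.55 and -1.29 and at -0.65 and -1.11 per the authors' deposited table. Neither had a ratio of -1 or below in both tumours, unlike the cohesin regulators Esco2, Sgol1, Sgol2, Espl1, Cdca5 and Pttg1.

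Other cell cycle genes had the same signs. All 23 spindle and kinesin genes had lower RNA in the quiescent cells of either tumour, with medians of -4.33 and -1.74 per the authors' deposited table. The 24 DNA replication genes likewise all had negative ratios there, at medians of -2.46 and -1.31 per the authors' deposited table. The segregation genes, at -3.61 and -1.62 per the authors' deposited table, lay between these lists. Lower in SCC1 and higher in SCC2 against double negative cells were 22 of the spindle and 19 of the replication genes, so that pattern was not seen in the segregation genes alone.

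Short sequence words in the promoters were counted next, because a known route of late cell cycle transcription acts through them. The cell cycle genes homology region (CHR) is bound by MuvB complexes, the CCAAT box by NF-Y, and E2F words by the E2F factors that also drive replication genes. Promoters were taken from RefSeq for GRCm38.p6, from 250 bases before to 50 after the start of a gene's first listed transcript, and other transcripts may start elsewhere. Of the 37 genes 32 had an entry, and Esco2, Ska1, Smc4, Spc24 and Zwilch had none. The words were searched on both strands: TTTGAA or TTCGAA for CHR, CCAAT, and for E2F the words TTTCCCGC or TTTGGCGC or TTTCGCGC or TTTGCCGC.

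A CHR word stood in 18 of the 32 promoters, 56.3%, against 19.4% of all promoters of the reference and 26.5% of the promoters of genes lower in quiescent cells. A CCAAT word stood in 20, 62.5%, against 37.9% of all promoters, 46.4% of those of the table's genes and 52.5% of those lower in quiescent cells. An E2F word stood in 6, 18.8%, against 2.32%, 7.59% and 11.9% of the same sets. Both a CHR and a CCAAT word stood in 13, 40.6%, against 7.70%. Of the genes of the table with a promoter, 19.8% had a CHR word. None of the 3 kinds of word stood in the promoters of Cenpp, Mad2l1, Ncapd3, Ncaph, Nuf2 and Pttg1. The medians of the 18 genes with a CHR word and of the 14 without one were -4.16 and -3.18 for quiescent against proliferative cells in SCC1, and -1.71 and -1.56 in SCC2, per the authors' deposited table. For the 20 genes with a CCAAT word and the 12 without one they were -3.64 and -3.31 in SCC1. In SCC2 this split gave -1.71 and -1.56, as for CHR, per the authors' deposited table. These shares and medians are descriptions, and a match is not a bound site.

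**Figure D4:**
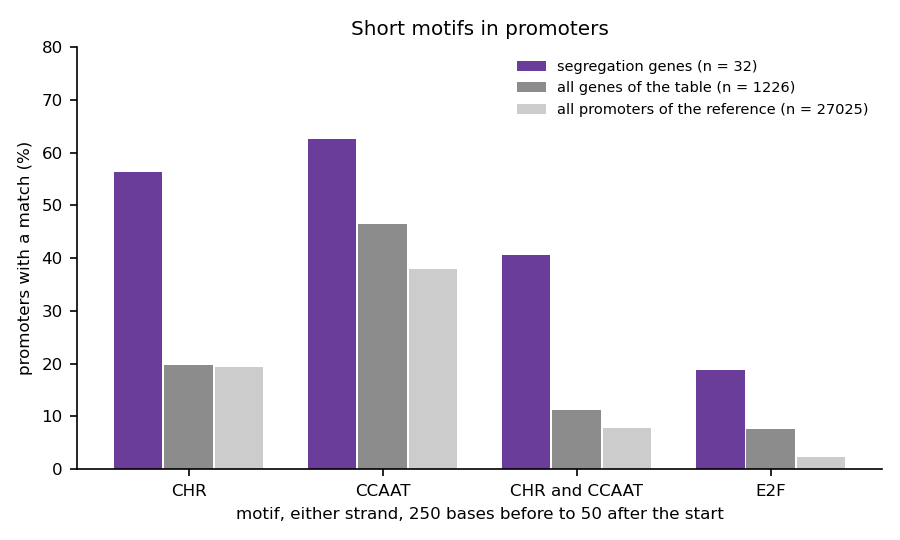
Share of promoters with a CHR word, a CCAAT word, both, or an E2F word on either strand, from 250 bases before to 50 after the start, for 32 segregation genes, for 1226 genes of the table and for 27025 promoters of the reference. For CHR the shares are 56.3%, 19.8% and 19.4%.

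The CHR words lay close to the transcription start, within 50 bases of it in 15 of the 32 promoters, 46.9%. In the same window, which was chosen after the places of the matches were seen, 5.29% of all promoters, 9.62% of those of the table's genes and 15.5% of those lower in quiescent cells held one. The 15 promoters below were picked for a CHR word in that window, so the word and its place are set by the choice. Each stretch runs 5′ to 3′ on the gene's strand, with CHR words, and CCAAT words where one falls in the stretch, in capitals. On the other strand they read TTCAAA and ATTGG. Positions count from the first transcribed base, in GRCm38.p6.
Ndc80, word at +30, chr17:71526811-71526840, minus strand: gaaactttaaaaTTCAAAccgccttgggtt
Spc25, +25, chr2:69206172-69206201, minus strand: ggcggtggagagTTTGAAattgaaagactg
Casc5, +32, chr2:119047138-119047167, plus strand: agggcggttagaTTTGAAtacttcagggac
Ska3, -14, chr14:57826160-57826189, minus strand: gcctgcgcaggaTTCAAAtgtgtagcgcgt
Cenpn, -9, chr8:116921719-116921748, plus strand: gccATTGGcggcTTCAAAagcacctcggcg
Cenpw, -25, chr10:30200548-30200577, minus strand: tccggcggCCAATTCAAAtcgaccactcgg
Cenpa, +17, chr5:30666890-30666919, plus strand: ggcgggtgatttTTTGAActgctggcgacc
Oip5, +34, chr2:119618456-119618484, minus strand: agaggcgcgcgcTTCAAAgaaatatggcg
Cenpf, +3, chr1:189688067-189688096, minus strand: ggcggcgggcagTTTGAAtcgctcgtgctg
Sgol1, +28, chr17:53689271-53689300, minus strand: gtaacgcagaatTTCGAAtgtggcggcggt
Espl1, -27, chr15:102296254-102296283, plus strand: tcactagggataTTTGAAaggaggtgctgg
Cdca5, -17, chr19:6085068-6085097, plus strand: caaggcgggcaaTTTGAAcgTTTGAAgcag
Ncapg, -30, chr5:45669883-45669912, plus strand: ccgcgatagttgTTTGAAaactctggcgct
Smc2, +27, chr4:52439235-52439264, plus strand: ctcgcgccgaaaTTCAAAggaacagttccg
Ncapg2, -18, chr12:116405406-116405435, plus strand: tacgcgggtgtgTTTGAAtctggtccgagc

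Of these 15 promoters 7 had the word before the start and 8 after it, with at least 1 from each of the 8 role groups. Sgol1 alone carried the TTCGAA form. In Cenpw the CCAAT and CHR words share a base, and Cdca5 held the CHR word at more than one place in the stretch.

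**Figure D5:**
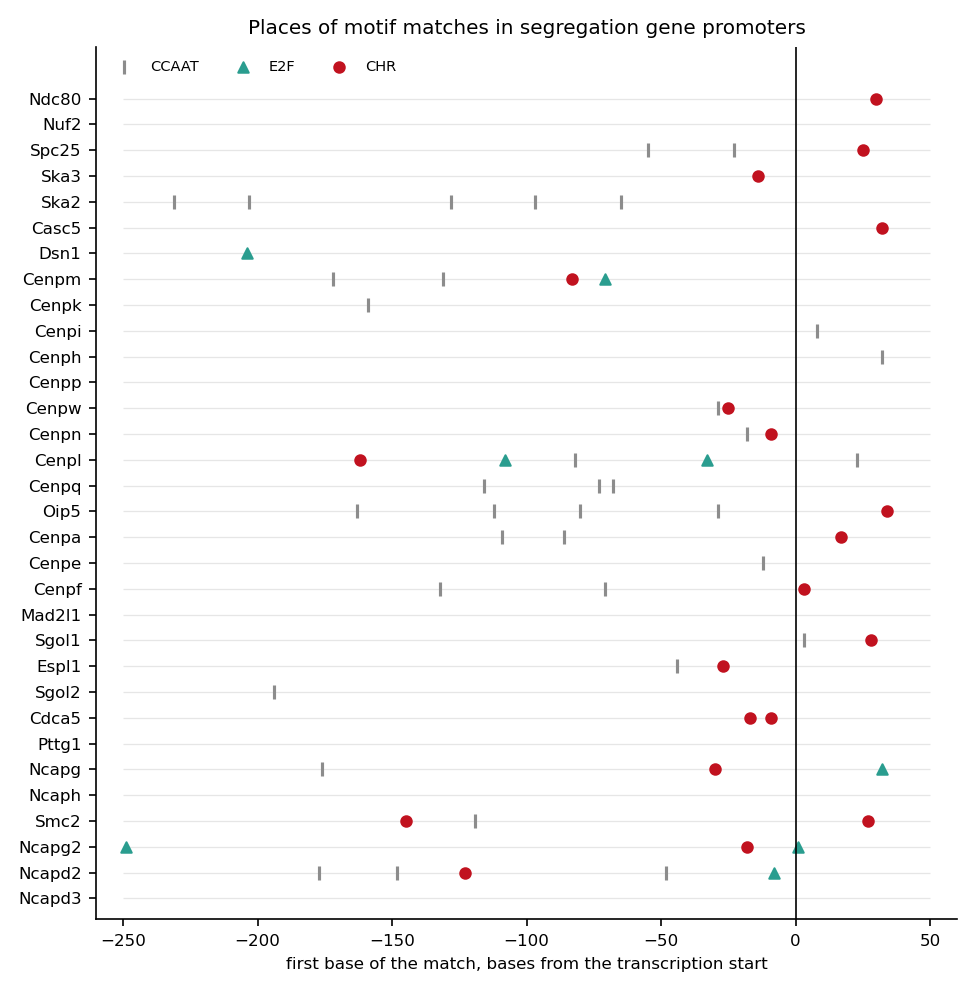
Places of CHR, CCAAT and E2F words in the promoters of the segregation genes, 1 row per gene, in bases from the transcription start. The CHR words of 15 genes lie within 50 bases of the start, while CCAAT words mostly lie before it.

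Smad2/3, the factors that carry the TGFβ signal to the genome, had a site within 10 kb of 4 of the 37 genes, 10.8%, against 21.4% of the table's genes, 18.8% of those lower in quiescent cells and 15.4% of protein-coding genes. The median gene length was 19789 bp for the segregation genes and 18727 bp for the table. The list comes from 1 ChIP library of SCC1 cells in culture, gives 201 bp sites without a score, and holds by its name sites with a motif. The sites at Cenpq (chr17:40934587-40934787, mm10, centred at -113 from the start) and Nuf2 (chr1:169531413-169531613, centred at -49) lay in an ATAC peak. The Cenpq site also overlaps the annotated Mmut gene, and the Nuf2 site a long non-coding RNA gene, Gm34624. Ncaph had 2 sites, centred at -3158 and -4461 from its start and inside the non-coding RNA gene Gm35347, and Zwilch had 1 in its gene body, none of them in an ATAC peak. The Zwilch site lies within 2 kb of Rpl4. These neighbours are named because a site near several genes cannot be given to one of them.

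The core Smad word CAGAC stood inside the promoter part of both sites that lay in an ATAC peak. It is shown here in capitals on the gene's strand, where GTCTG is its other-strand form.
Cenpq, word at -158, chr17:40934716-40934744, minus strand: cagaaccgaaccCAGACgccggggtcaca
Cenpq, -44, chr17:40934602-40934630, minus strand: ttgcgggcgcgcGTCTGatgacgtaaaga
Nuf2, -126, chr1:169531574-169531602, minus strand: ctgcgcttcctgGTCTGgcggaatcgcgg
This word is short: 35.6% of all promoters hold it in the window of the Cenpq site and 37.1% in that of the Nuf2 site. The site list holds by its name sites with a motif, so a Smad word inside a site may come from how the list was made. The longer palindrome GTCTAGAC stood in 1 of the 32 promoters, that of Cenpp, against 0.211% of all promoters. Nuf2, with a site over its start, had one of the lowest quiescent ratios in SCC1, and Cenpq one of those nearest to 0.

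Open chromatin was found at the segregation genes in the merged ATAC peak list, which pools libraries, so populations could not be compared. All 37 genes had a peak within 10 kb, where 93.9% of the table's genes had one. Genes held 1 to 10 such peaks with a median of 2, and Ncapg2 had the 10, Cenpp 9 and Ncapd3 7. A peak lay over the start in 28 of 32 genes, 87.5%, against 74.0% of the table's genes and 83.2% of those lower in quiescent cells. Of the others the nearest peak was 20 bases from the start for Pttg1, 69 for Casc5, 3561 for Sgol2 and 9297 for Ncaph. Ncaph is thus a gene whose Smad2/3 sites lie nearer to its start than any ATAC peak.

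Copy number, called by the authors from the input libraries, was gained at 16 of the 37 genes in SCC1 (43.2%, against 45.1% of the table's genes) and at 17 in SCC2 (45.9%, against 43.9%). Losses to 1 copy were listed for Cenpf in both tumours and for Esco2 in SCC1. That is 5.41% of the 37 genes in SCC1, against 1.5% of the table's genes, and 2.70% in SCC2, against 1.38%. Genes with a gain and genes with no call had these medians for quiescent against proliferative cells per the authors' deposited table: -3.31 with a gain and -3.63 without a call in SCC1, then -1.62 and -1.56 in SCC2. Cenph, at 5 copies in SCC1, had the highest number.

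The authors' list of nonsynonymous mutations, called from the RNA, holds 2 segregation genes. The share of the table's genes in that list is not given here. Cenpf carried Q559P in exon 12 (chromosome 1, position 189659958) in 61% of 46 reads of the proliferative library of SCC1 (exact 95% interval 45.4% to 74.9%) and in 59% of 73 reads of SCC2 (46.8% to 70.3%). The copy number calls, from cells in culture, list Cenpf at 1 copy in both tumours. Cenpe carried K416N in exon 14 (chromosome 3, position 135230053) in 44% of 108 reads in SCC1 (34.9% to 54.3%) and in 18% of 113 reads in SCC2 (11.2% to 26.0%). The Cenpe intervals of the tumours do not overlap, and the Cenpf intervals do. How often this holds over all listed mutations is not given here, so it is no result about Cenpe. The intervals count reads as independent, which PCR copies are not, and so hold counting error alone. Neither change is listed for the quiescent libraries, where Cenpf stood at 2.60% and 23.5% and Cenpe at 3.17% and 17.5% of the proliferative level and the depth at these positions is not given, so a change not listed there cannot be read as absent.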

How the data were processed

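Ratios are log2 values from the authors' deposited table, made with TopHat2 2.0.9, Cufflinks 2.2.0 and Cuffdiff 2.2.0 on mm10 per the submitters' processing notes; for the double negative libraries they list mm9 too. By its title the table lists differentially expressed genes; the sources used here give neither the rule of that selection nor how libraries were scaled. ChIP and input reads were handled with Bowtie and Picard 1.88 and ATAC reads with Bowtie, per the submitters' processing notes. Sites and peaks were deposited as positions. Copy numbers came with a p-value per region by the authors, not used here. Mutations came as deposited read counts and whole percents by the authors. The callers are not named in the sources used here.

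Members and gene lists were chosen with earlier results of these data known. Counts, medians, overlaps of at least 1 bp and word searches were made in Python 3.11.15 with numpy 2.4.6, pandas 2.3.3, scipy 1.17.1 and matplotlib 3.10.9, and were tested on simulated data. Gene positions came from RefSeq on GRCm38.p6, and 1600 genes matched, 1492 by symbol and 108 by synonym. Windows were the gene with 10 kb either side. Values are given for the 3 genes of each role with the lowest mean quiescent ratio and for genes whose sign went against that of most others. No test was run, since the ratios are the authors' own comparisons and the 2 tumours are the only replicates.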

Additional observations from a re-analysis of the deposited data

Results flagged for a closer look

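Of the 37 segregation genes 32 had a negative ratio of quiescent against double negative cells in SCC1 and a positive one in SCC2, where 40.8% of the table's genes did. So did 22 of 23 spindle and kinesin genes and 19 of 24 replication genes. The tumours thus stood on opposite sides of 0 for most of these genes. The difference between the tumours was not tested, with 1 library per population and tumour.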

How the results depend on the processing

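All 37 genes were lower in quiescent and in double negative than in proliferative cells in either tumour alone and with ratios near the table's limit of 12 left out, where no segregation gene stood, and all 36 listed genes were lower when Cenpw was left out. Means in place of medians gave -2.90 in SCC1 and -2.69 in SCC2 for double negative against proliferative cells. For quiescent against double negative cells, either tumour alone gave 2 to 34 lower and 3 to 35 higher genes, and a log2 ratio of 1 or more in both tumours left 1 lower and 0 higher. Smad2/3 sites were near 11 of the 37 genes within 50 kb, where 42.0% of the table's genes had one. They were near 2 genes when only sites in an ATAC peak counted, a count for which the share of the table's genes is not given here. The 100 bases before the start held a CHR word in 8 promoters (of 32, against 9.32% of genes lower in quiescent cells), CCAAT in 12 (37.5%, near the 36.4% of those genes), E2F in 3 (9.38%, against 3.61%) and GTCTAGAC in 0. Within 50 bases either side of the start, a window added after seeing the data, CCAAT stood in 11 (34.4%, against 27.4%) and GTCTAGAC in 0. In all, 48 of the alternative values stayed within 1 SD between the tumours (medians) or 1.5 times (counts) of those reported, and 14 did not. No paired analysis was possible because the table gives ratios already taken within a tumour and no values of single libraries, so fits with and without a tumour block could not be set side by side. Depth is unknown, so how well any ratio is measured, and most of all the lowest in SCC1, cannot be given.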
